A study of Mus musculus with 12 samples.

Results

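The 10 genes described here encode the nuclear end of canonical WNT signalling, and were chosen by name from the gene column of the deposited table, which holds 24736 genes. All 10 were found, and all 10 were among the 14196 genes with enough counts to be tested. They are the 4 TCF/LEF factors (Tcf7, Lef1, Tcf7l1 and Tcf7l2), Ctnnb1, which encodes β-catenin, the co-activator genes Bcl9, Bcl9l and Pygo2, and the Groucho-type co-repressor genes Tle3 and Tle4. Their RNA was measured at 72 h in 4 groups of 3 libraries made from mouse embryonic stem cells that had been differentiated with FGF throughout, and with LGK974 in every group to block the release of WNT ligands. EpiLC (epiblast-like cells) were wild type and received no CHIR99021, and CEpiLC (caudal epiblast-like cells) were wild type with CHIR99021, a GSK3 inhibitor that activates the WNT pathway within the cell, from day 2 to day 3. Per the paper, the wild type was the XY HM1 TetON line, the parent of all lines used. The rtTA activator was expressed from Rosa26 in the line from which the SOX2 TetON cells were made. SOX2-OFF and SOX2-ON were both cultures of the SOX2 TetON cells, whose endogenous Sox2 gene had been ablated. Their doxycycline-inducible Sox2 transgene sits in the Hprt locus. SOX2-OFF and SOX2-ON received CHIR99021 from day 2 to day 3. Doxycycline was withdrawn from SOX2-OFF and kept at 1 µg/ml in SOX2-ON. Between SOX2-OFF and SOX2-ON, an effect of doxycycline itself and an effect of the SOX2 level therefore cannot be told apart. The SOX2 TetON line derives from a picked clone of the parental line, so that a property of the clone and an effect of the missing endogenous Sox2 gene cannot be told apart in any comparison with wild type.

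In the absence of a WNT signal, β-catenin outside cell junctions is marked for destruction by a complex that includes AXIN, APC and GSK3. When that complex is blocked, β-catenin accumulates, enters the nucleus and binds TCF/LEF proteins, which sit on DNA whether or not β-catenin is present. TCF7L1 is known in pluripotent cells mainly as a repressor, LEF1 and TCF7 mainly as factors that activate with β-catenin, and TLE proteins repress through TCF/LEF when β-catenin is absent. BCL9 and BCL9L bind β-catenin and recruit PYGO proteins. Lef1 and Axin2 are themselves known WNT targets in many tissues. Several of these genes make isoforms, including short LEF1 and TCF7 proteins that lack the end that binds β-catenin. The table is per gene, so that isoforms could not be told apart here.

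The labels were checked first. Sox2 lay between 119 and 171 TPM (an expression level scaled by transcript length and library size) for EpiLC, between 7.78 and 13.7 for CEpiLC, between 12.3 and 21.2 for SOX2-OFF and between 173 and 215 for SOX2-ON, where the reads of transgene and endogenous gene are counted together. Pou5f1, a pluripotency factor, stood at means of 843 to 1070 TPM in all 4 groups. T, a primitive streak gene, was at most 0.68 TPM for EpiLC and averaged 711, 809 and 152 TPM for CEpiLC, SOX2-OFF and SOX2-ON. Library totals ran from 10408252 to 27337740 expected counts. The SOX2 TetON libraries stood apart from wild type by whole chromosomes. The median gene was higher in the TetON line by 0.579 on the log2 scale on chromosome 6 and by 0.607 on chromosome 8. On chromosome 11 it was lower, at -0.522, and no other chromosome's median moved by more than 0.0583. Tcf7 lies on chromosome 11 and Tcf7l1 on chromosome 6, while the other 8 genes lie on chromosomes 3, 9 and 19. Fold changes and shares of Tcf7 and Tcf7l1 against wild type are therefore given with and without that shift. Levels, sums and ratios are given as deposited, with the shift left in.

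Sequences before the transcription starts were read from RefSeq promoters (GRCm38.p6), since Lef1 and Tcf7 rose together in CEpiLC and Lef1 is a known WNT target. Of the 10 genes, 9 matched, with 18 starts in all, and 250 bases before each start were searched on both strands for 3 words: CTTTGAT, the core bound by TCF/LEF, CATTGTT, bound by SOX factors, and CACACCT, bound by T-box factors. None of the 18 windows held CTTTGAT, which 3.21% of the 32851 windows of all genes held. CATTGTT was found before 1 start of Tcf7l2 (3.29% of all windows) and CACACCT before 1 internal start of Lef1 (5.1% of all windows). These matches describe letters and are not evidence of binding. The window before the first listed start of Lef1, the TCF/LEF gene with the largest rise in CEpiLC, and the 2 windows with a match are shown 5′ to 3′ on the gene's strand, in lower case with matches in capitals. The first Lef1 window is chr3:131110047-131110296 (+ strand), before the gene, and the second is chr3:131112541-131112790 (+ strand), inside the gene but in no annotated exon, with its match 232 bases before the start. The Tcf7l2 window is chr19:55741560-55741809 (+ strand), with its match 103 bases before the start.
Lef1, first start: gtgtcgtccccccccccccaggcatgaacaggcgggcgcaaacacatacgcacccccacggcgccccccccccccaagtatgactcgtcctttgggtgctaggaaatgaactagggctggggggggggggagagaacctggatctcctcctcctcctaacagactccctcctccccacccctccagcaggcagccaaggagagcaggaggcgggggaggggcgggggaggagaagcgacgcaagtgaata
Lef1, internal start: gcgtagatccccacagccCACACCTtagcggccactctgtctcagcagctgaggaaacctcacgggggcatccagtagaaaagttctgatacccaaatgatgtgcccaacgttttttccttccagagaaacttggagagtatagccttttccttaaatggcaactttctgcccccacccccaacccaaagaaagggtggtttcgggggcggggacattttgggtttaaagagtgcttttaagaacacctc
Tcf7l2: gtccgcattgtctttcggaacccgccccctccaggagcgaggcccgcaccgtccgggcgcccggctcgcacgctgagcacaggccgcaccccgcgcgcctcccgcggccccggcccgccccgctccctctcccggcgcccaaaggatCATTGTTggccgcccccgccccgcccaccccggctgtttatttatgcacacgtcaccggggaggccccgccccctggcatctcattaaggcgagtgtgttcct
Bases were G or C in 66.4% of the first Lef1 window, 50.8% of the internal one and 72.8% of the Tcf7l2 window, against a mean of 53.2% over all windows.

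The 4 TCF/LEF genes moved in different directions. Lef1 (chromosome 3, 131110297 to 131224357) read 31.0, 26.9 and 37.5 TPM in the 3 EpiLC libraries, 91.2, 98.6 and 128.7 for CEpiLC, 76.4, 69.3 and 87.7 for SOX2-OFF, and 41.0, 39.5 and 36.3 for SOX2-ON. All CEpiLC and SOX2-OFF libraries stood above all EpiLC and SOX2-ON libraries, and SOX2-ON overlapped EpiLC. Lef1 rose 3.37-fold in CEpiLC over EpiLC (log2 fold change 1.75 ± 0.15 SE, adjusted p 1.2e-06 by edgeR). It was lower in SOX2-ON than in CEpiLC (-1.496 ± 0.15 SE, adjusted p 2.28e-06 by edgeR) and lower in SOX2-ON than in SOX2-OFF (-1.06 ± 0.14 SE, adjusted p 0.000144 by edgeR). Between SOX2-OFF and CEpiLC the difference was smaller (-0.44 ± 0.14 SE, adjusted p 0.0203 by edgeR) and rested on single libraries. Without CEpiLC replicate 3, the shallowest library, it was -0.28 with an edgeR adjusted p of 0.0907, and without SOX2-OFF replicate 1 or 2 the adjusted p was 0.0719 or 0.0936. In such bulk samples, fewer cells that express a gene and less RNA in each cell cannot be told apart.

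Tcf7 (chromosome 11, 52246527 to 52283383) encodes TCF1 and had the same high group as Lef1. It read 70.1, 80.9 and 88.1 TPM for EpiLC, 132.8, 120.6 and 132.9 for CEpiLC, 101.8, 95.7 and 98.6 for SOX2-OFF, and 72.4, 67.9 and 71.6 for SOX2-ON. Every CEpiLC library was above every other library, and only EpiLC and SOX2-ON overlapped. Tcf7 rose in CEpiLC over EpiLC (log2 fold change 0.70 ± 0.07 SE, adjusted p 7.91e-06 by edgeR). Within the SOX2 TetON line, where the chromosome shift is shared, it was lower in SOX2-ON than in SOX2-OFF (-0.53 ± 0.07 SE, adjusted p 0.000147 by edgeR). Against CEpiLC it was lower in SOX2-ON (-0.90 ± 0.07 SE, adjusted p 5.16e-07 by edgeR), and at -0.36 with the shift removed (adjusted p 0.00103 by edgeR). Its lower level in SOX2-OFF than in CEpiLC (-0.37 ± 0.07 SE, adjusted p 0.000991 by edgeR) did not outlast that step: with the shift of chromosome 11 removed, the difference was 0.15 with an edgeR adjusted p of 0.112.

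Tcf7l1 (chromosome 6, 72626371 to 72789045), the repressor-type factor of pluripotent cells, had group means in the opposite order to Lef1. It read 79.8, 85.3 and 75.8 TPM for EpiLC, 14.8, 18.96 and 20.9 for CEpiLC, 30.2, 30.6 and 32.6 for SOX2-OFF, and 52.5, 55.9 and 47.4 for SOX2-ON. No 2 groups overlapped, from EpiLC at the top through SOX2-ON and SOX2-OFF to CEpiLC. It fell in CEpiLC to 0.225 times its EpiLC level (log2 fold change -2.15 ± 0.11 SE, adjusted p 1.83e-08 by edgeR), the largest difference among the 10 genes in that comparison. It was higher in SOX2-ON than in SOX2-OFF (0.69 ± 0.11 SE, adjusted p 0.000393 by edgeR). Against CEpiLC it was higher in SOX2-ON (1.495 ± 0.11 SE, adjusted p 2.72e-07 by edgeR), and by 0.92 with the shift of chromosome 6 removed. Its excess in SOX2-OFF over CEpiLC (0.81 ± 0.11 SE, adjusted p 7.03e-05 by edgeR) came to 0.24 with the shift removed, with an edgeR adjusted p of 0.104.

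Tcf7l2 (chromosome 19, 55741797 to 55933659), which encodes TCF4, was the lowest of the family at 4.42 to 8.2 TPM over the 12 libraries, from 99 to 274 counts a library. SOX2-OFF libraries, at 6.49, 6.22 and 8.2 TPM, were above all EpiLC and CEpiLC libraries and overlapped SOX2-ON. The difference from CEpiLC (log2 fold change 0.49 ± 0.16 SE, adjusted p 0.0222 by edgeR) was not called without CEpiLC replicate 1 (adjusted p 0.0713 by edgeR), without CEpiLC replicate 3 (0.0641) or without SOX2-OFF replicate 3 (0.0993). No other comparison among the groups with CHIR99021, and none between CEpiLC or SOX2-ON and EpiLC, was called for this gene.

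**Figure D1:**
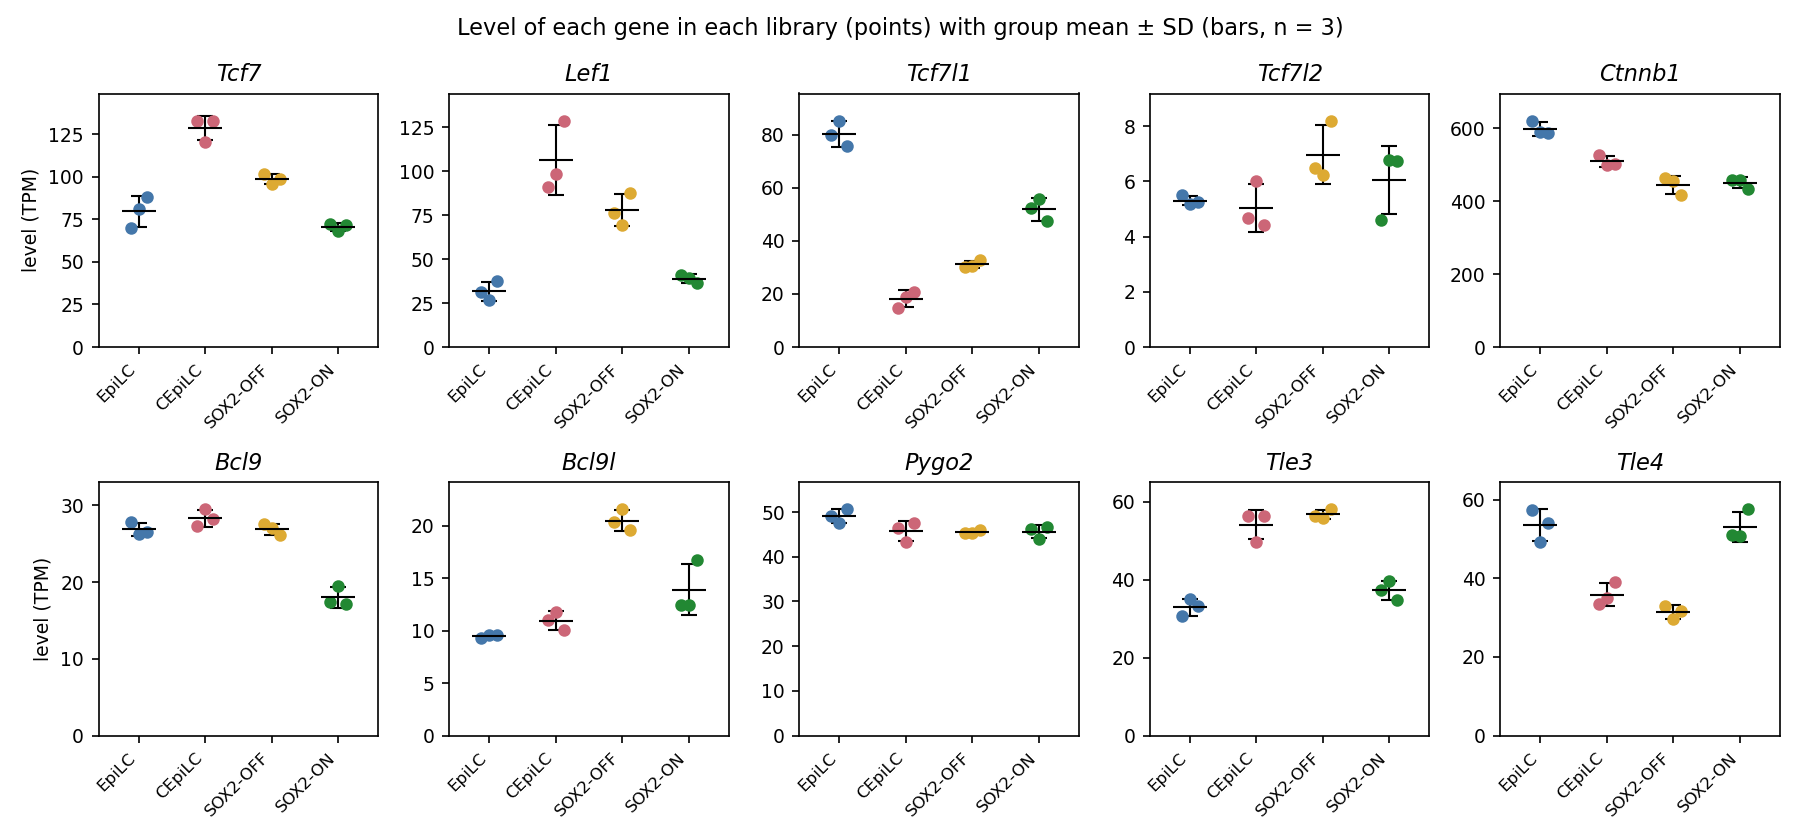
Level in TPM (vertical axes, each from 0) of each of the 10 genes in the 3 libraries of each group (points), with the group mean and SD (bars). Lef1 and Tle3 were high in CEpiLC and SOX2-OFF, Tcf7l1 ran from 79.8, 85.3 and 75.8 TPM for EpiLC down to 14.8, 18.96 and 20.9 for CEpiLC, and Pygo2 stayed between 43.3 and 50.7 TPM.

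Because the 4 genes differ in level as well as in direction, the makeup of the TCF/LEF transcript pool was computed per library, as each gene's share of their summed TPM. In EpiLC, Tcf7l1 made 40.8% ± 3.61 of the pool (SD, n = 3) and Lef1 16.1% ± 2.35. In CEpiLC, Tcf7l1 made 7.04% ± 0.879 and Lef1 40.9% ± 3.72. The pool thus changed mainly in these 2 genes, whose order was inverted. SOX2-OFF had 14.5% ± 0.587 of Tcf7l1 and 36.2% ± 2.19 of Lef1, and SOX2-ON 31.0% ± 1.81 and 23.2% ± 0.828. Tcf7 kept 40.3 to 50.1% of the pool by group mean and was the largest or the second largest part in each group. Tcf7l2 made 1.97 to 3.62%. The summed level was 197 ± 10.1 TPM for EpiLC, 258 ± 24.9 for CEpiLC, 215 ± 12.7 for SOX2-OFF and 168 ± 4.75 for SOX2-ON. These sums, and the shares in this paragraph, have the chromosome shift left in.

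All 4 shares differed among the groups in an exact permutation test over the 369600 ways to assign 12 libraries to 4 groups of 3, adjusted over the 4 shares. The adjusted p was 0.00026 for Tcf7l1, with 33.8 percentage points between the highest and the lowest group, and its unadjusted p of 6.49e-05 was the smallest that the test can give. For Lef1, with 24.8 points, the exact adjusted p was also 0.00026. For Tcf7 (9.75 points) and Tcf7l2 (1.64 points) the exact adjusted p was 0.0106 and 0.0167, and that of Tcf7l2 was 0.0608 without CEpiLC replicate 3. The test does not say which groups differ. With the chromosome shift removed, the Tcf7l1 share was 48.8% for EpiLC, 9.06% for CEpiLC, 11.3% for SOX2-OFF and 24.6% for SOX2-ON, in the same order, but the SOX2-ON share, nearer to EpiLC as deposited, was then nearer to CEpiLC. The Tcf7 share was 32.9% for EpiLC, 44.2% for CEpiLC, 51.8% for SOX2-OFF and 49.4% for SOX2-ON with the shift removed, a spread of 18.9 points (exact adjusted p 0.00104), so that its highest group was SOX2-OFF instead of CEpiLC.

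**Figure D2:**
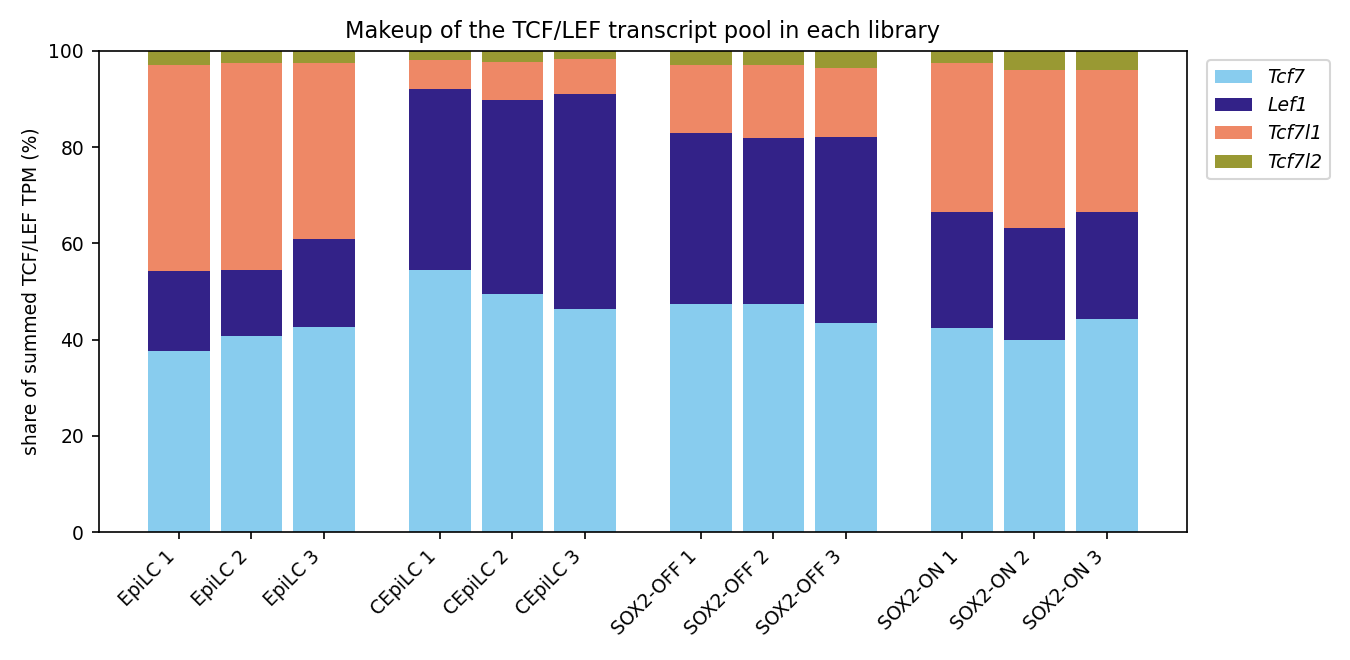
Share (%) of each TCF/LEF gene in the summed TPM of the 4 genes, 1 stacked bar for each library. Tcf7l1 makes 36.7 to 43.0% of the EpiLC bars and 6.06 to 7.77% of the CEpiLC bars, with SOX2-OFF at 14.0 to 15.2% and SOX2-ON at 29.3 to 32.9%.

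The TLE co-repressor genes moved in opposite directions. Tle3 (chromosome 9, 61372326 to 61418497) read 30.7, 34.96 and 33.2 TPM for EpiLC, 56.2, 49.7 and 56.4 for CEpiLC, 56.3, 55.9 and 58.0 for SOX2-OFF, and 37.3, 39.6 and 34.8 for SOX2-ON. Tle4 (chromosome 19, 14448072 to 14598183) read 57.4, 49.3 and 54.1 TPM for EpiLC, 33.4, 35.03 and 39.04 for CEpiLC, 33.1, 29.6 and 31.6 for SOX2-OFF, and 50.9, 50.7 and 57.6 for SOX2-ON. For both genes the 12 libraries fell into the same 2 sets, CEpiLC with SOX2-OFF and EpiLC with SOX2-ON, which did not overlap. In CEpiLC over EpiLC, Tle3 rose (log2 fold change 0.72 ± 0.07 SE, adjusted p 4.63e-06 by edgeR) and Tle4 fell (-0.58 ± 0.08 SE, adjusted p 6.79e-05 by edgeR). In SOX2-ON against SOX2-OFF, Tle3 was lower (-0.66 ± 0.07 SE, adjusted p 1.88e-05 by edgeR) and Tle4 higher (0.70 ± 0.08 SE, adjusted p 2.43e-05 by edgeR). SOX2-OFF and CEpiLC differed by 0.08 for Tle3 (adjusted p 0.361 by edgeR) and by -0.17 for Tle4 (adjusted p 0.0824 by edgeR). SOX2-ON and EpiLC differed by 0.14 for Tle3 (adjusted p 0.0952 by edgeR), which was called without SOX2-ON replicate 3 (0.0279), and by -0.05 for Tle4 (adjusted p 0.609 by edgeR). The ratio of Tle3 to Tle4 TPM was 0.619 ± 0.0877 for EpiLC, 1.52 ± 0.146 for CEpiLC, 1.81 ± 0.0939 for SOX2-OFF and 0.705 ± 0.0912 for SOX2-ON (SD, n = 3).

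The co-activator genes of the BCL9 pair each stood out in a different TetON group. Bcl9 (chromosome 3, 97203658 to 97298402) read 27.9, 26.3 and 26.5 TPM for EpiLC, 27.3, 29.5 and 28.2 for CEpiLC, 27.5, 26.99 and 26.1 for SOX2-OFF, but 17.4, 19.5 and 17.1 for SOX2-ON. All 3 SOX2-ON libraries were below the other 9, and the other groups overlapped. Bcl9 was lower in SOX2-ON than in SOX2-OFF (log2 fold change -0.63 ± 0.06 SE, adjusted p 8.57e-06 by edgeR), than in CEpiLC (-0.69 ± 0.06 SE, adjusted p 9.77e-07 by edgeR) and than in EpiLC (-0.61 ± 0.06 SE, adjusted p 2.06e-06 by edgeR). Bcl9l (chromosome 9, 44482738 to 44511906) read 9.28, 9.59 and 9.62 TPM for EpiLC, 11.03, 11.8 and 10.02 for CEpiLC, 20.3, 21.6 and 19.5 for SOX2-OFF, and 12.5, 12.5 and 16.7 for SOX2-ON. The SOX2-OFF libraries were above all others. Bcl9l stood higher for SOX2-OFF than for CEpiLC (0.90 ± 0.10 SE, adjusted p 9.23e-06 by edgeR) and lower in SOX2-ON than in SOX2-OFF (-0.62 ± 0.10 SE, adjusted p 0.000431 by edgeR). Its excess in SOX2-ON over CEpiLC (0.29 ± 0.10 SE, adjusted p 0.0254 by edgeR) was not called without CEpiLC replicate 3 (0.08), without SOX2-ON replicate 3 (0.11) or with only the 6 libraries compared (0.0763). In wild type, Bcl9 and Bcl9l gave no called difference between CEpiLC and EpiLC (adjusted p 0.306 and 0.112 by edgeR). The ratio of Bcl9 to Bcl9l TPM was 2.83 ± 0.147 for EpiLC and 2.59 ± 0.188 for CEpiLC, against 1.31 ± 0.0544 for SOX2-OFF and 1.33 ± 0.277 for SOX2-ON.

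**Figure D3:**
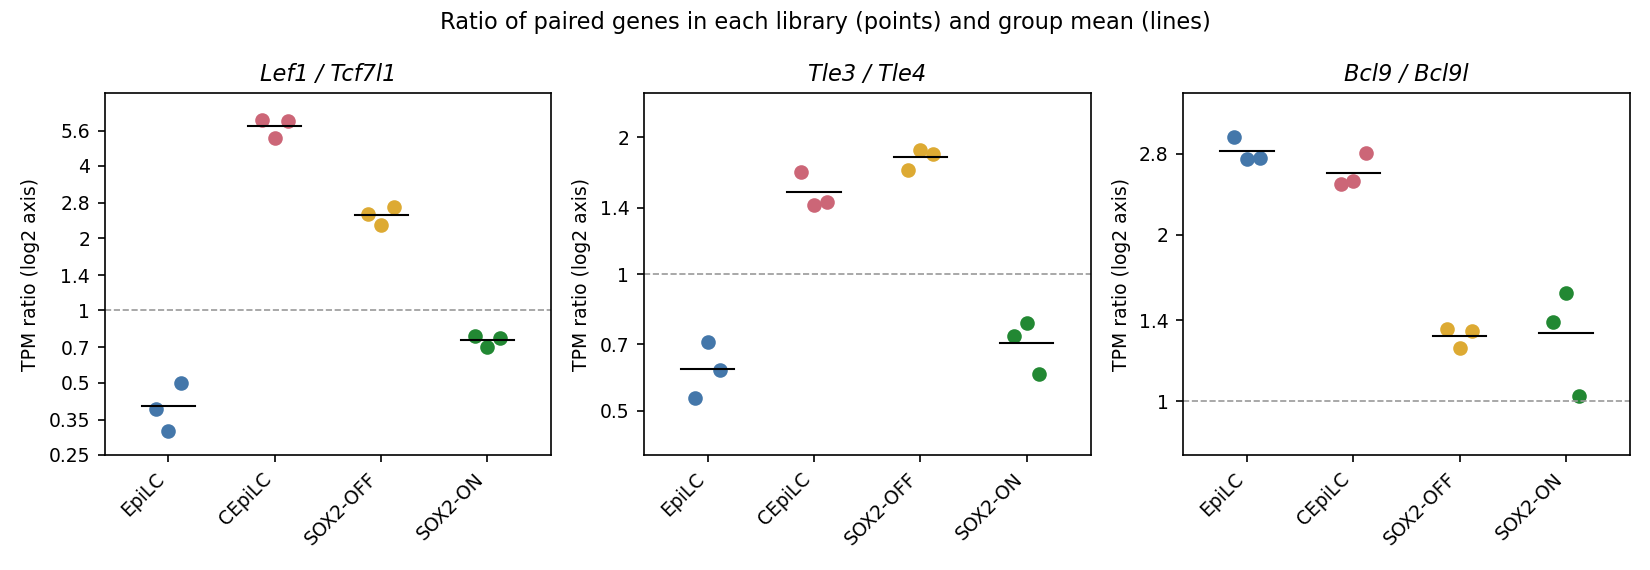
Ratio of TPM levels (log2 axes, dashed line at 1) of Lef1 to Tcf7l1, Tle3 to Tle4 and Bcl9 to Bcl9l in each library (points) with group means (lines). The first ratio averages 0.4 for EpiLC, 5.85 for CEpiLC, 2.49 for SOX2-OFF and 0.751 for SOX2-ON, with the chromosome shift that affects Tcf7l1 left in. The second lies above 1 in every CEpiLC and SOX2-OFF library and below 1 in the others, and the third separates the wild-type from the SOX2 TetON libraries.

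Ctnnb1 (chromosome 9, 120933400 to 120960507) was by far the most abundant of the 10 transcripts. It read 620.5, 588.1 and 586.3 TPM for EpiLC, 525.5, 499.2 and 502.2 for CEpiLC, 462.5, 453.8 and 416.5 for SOX2-OFF, and 458.6, 459.2 and 433.1 for SOX2-ON. The EpiLC libraries were the highest and the CEpiLC libraries next, while the TetON groups overlapped. Ctnnb1 RNA fell in CEpiLC against EpiLC (log2 fold change -0.23 ± 0.05 SE, adjusted p 0.0045 by edgeR) and was lower in SOX2-ON than in CEpiLC (-0.22 ± 0.05 SE, adjusted p 0.00393 by edgeR). The difference of SOX2-OFF from CEpiLC (-0.18 ± 0.05 SE, adjusted p 0.0138 by edgeR) was not called without CEpiLC replicate 1 (0.0826) or SOX2-OFF replicate 3 (0.0623). SOX2-ON and SOX2-OFF differed by -0.04 (adjusted p 0.659 by edgeR). β-catenin is regulated mainly through its protein's stability, which RNA does not measure. Pygo2 (chromosome 3, 89430114 to 89435131), whose protein binds methylated histone H3 tails through a PHD finger, varied least, from 43.3 to 50.7 TPM over all libraries, and no comparison was called. The lowest adjusted p for Pygo2 was 0.0566, for SOX2-ON against EpiLC (log2 fold change -0.14), and this was called under 4 of the alternatives (adjusted p 0.03 to 0.0492 by edgeR).

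Read by comparison, CHIR99021 in wild-type cells changed 6 of the 10 genes: Tcf7, Lef1 and Tle3 rose, and Tcf7l1, Ctnnb1 and Tle4 fell. Of all genes tested, 42.2% were called in this comparison, 22.1% higher and 20.1% lower, and the count among the 10 is to be read against that background. The median absolute log2 fold change of the 10 was 0.402, against 0.264 over all genes tested. SOX2-ON and SOX2-OFF share 1 line and differ in doxycycline. Between them, 7 of 10 were called (Tcf7l1 and Tle4 higher, and Tcf7, Lef1, Bcl9, Bcl9l and Tle3 lower), against 28.8% of all genes, 14.8% higher and 14.1% lower. The median absolute log2 fold change was 0.623 for the 10 and 0.207 over all. The 10 genes were chosen with earlier results of these data known, so the contrasts with all genes, here and below, are descriptive. All 7 calls were kept under each alternative that was run at the threshold of 0.05 and under a threshold of 0.01.

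Against CEpiLC, SOX2-OFF differed in 6 of 10 (Tcf7l1, Tcf7l2 and Bcl9l higher, and Tcf7, Lef1 and Ctnnb1 lower), with 48.5% of all genes called, 23.6% higher and 24.9% lower. This count was 4 with the chromosome shift removed, and at an adjusted p of at most 0.01 it was 3. The median absolute log2 fold change of the 10, at 0.275, was below that of all genes, at 0.326. SOX2-ON differed from CEpiLC in 8 of 10 (Tcf7l1, Bcl9l and Tle4 higher, and Tcf7, Lef1, Ctnnb1, Bcl9 and Tle3 lower), with 56.5% of all genes called, 27.9% higher and 28.6% lower, and medians of 0.553 and 0.373. These 2 comparisons share the CEpiLC libraries.

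The TetON groups were last set against EpiLC, where CHIR99021 and the line both differ. SOX2-OFF differed in 8 of 10 (Tcf7, Lef1, Tcf7l2, Bcl9l and Tle3 higher, and Tcf7l1, Ctnnb1 and Tle4 lower), with 62.1% of all genes called, 31.5% higher and 30.6% lower. The largest were Tcf7l1 (-1.35 ± 0.11 SE, adjusted p 2.94e-07 by edgeR), Lef1 (1.31 ± 0.15 SE, adjusted p 5.36e-06 by edgeR) and Bcl9l (1.11 ± 0.10 SE, adjusted p 7.76e-07 by edgeR). The call of Tcf7l2 (0.41, adjusted p 0.0388 by edgeR) was lost without any 1 EpiLC library (adjusted p 0.0575, 0.0949 and 0.0924 for replicates 1, 2 and 3), without SOX2-OFF replicate 3 (0.164), with library size alone (0.0505), by limma-voom (0.0531) and with the chromosome shift removed (0.0517). With that shift removed, Tcf7l1 was at -1.93 (adjusted p 2.13e-08 by edgeR), and Tcf7, at 0.33 as deposited, at 0.84 (adjusted p 8.09e-07 by edgeR). SOX2-ON differed from EpiLC in 5 of 10, Bcl9l higher and Tcf7, Tcf7l1, Ctnnb1 and Bcl9 lower, with 59.8% of all genes called, 30.7% higher and 29.1% lower. Lef1, at 0.26 (SE 0.15, adjusted p 0.15 by edgeR), was not called. Tcf7l1 was lower in SOX2-ON than in EpiLC (-0.66 ± 0.11 SE, adjusted p 0.000127 by edgeR) although chromosome 6 as a whole was higher in the TetON line, and with that shift removed the difference was -1.25. Tcf7 was called lower (-0.20 ± 0.07 SE, adjusted p 0.0315 by edgeR), but higher with the shift of chromosome 11 removed (0.33, adjusted p 0.00188 by edgeR). Its call was also lost without EpiLC replicate 2 (0.0828) or 3 (0.154) and without SOX2-ON replicate 2 (0.115) or 3 (0.0725).

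**Figure D4:**
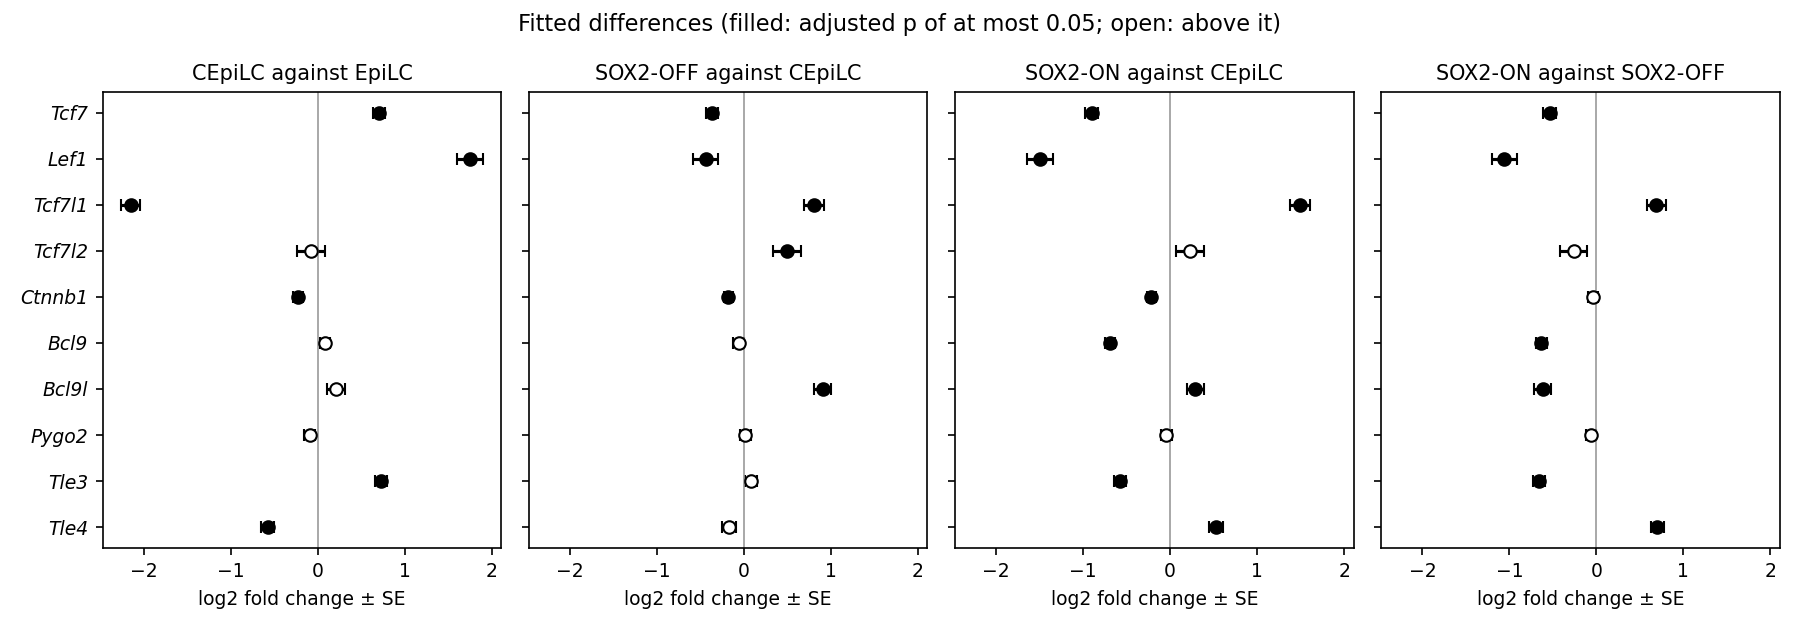
Fitted log2 fold change ± SE (horizontal axis) of each gene in 4 comparisons, filled where the edgeR adjusted p was at most 0.05. In SOX2-ON against SOX2-OFF, 2 genes lie to the right and 5 to the left among the filled points. Tcf7l1 lies at -2.15 for CEpiLC against EpiLC and at 0.69 for SOX2-ON against SOX2-OFF.

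**Figure D5:**
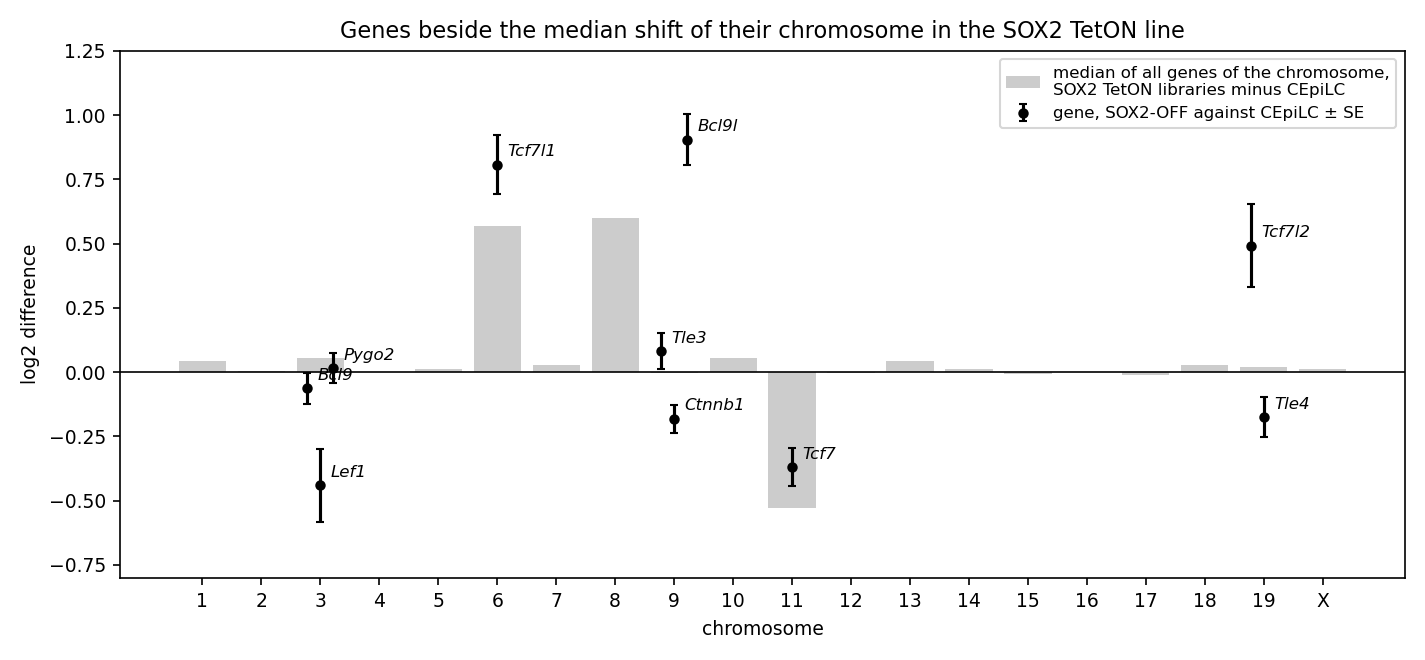
Grey bars give, for each chromosome (horizontal axis), the median log2 difference of its genes between the SOX2 TetON libraries and CEpiLC, and points give the log2 fold change ± SE of each of the 10 genes in SOX2-OFF against CEpiLC. Tcf7l1 (0.81) and Tcf7 (-0.37) lie on chromosomes whose medians are 0.57 and -0.529, while Bcl9l (0.90) and Lef1 (-0.44) lie on chromosomes with medians of -0.00408 and 0.0532.

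Genes with a pattern most like each TCF/LEF gene were taken as the 3 with the highest Pearson correlation of log2 CPM over the 12 libraries, among 10862 genes averaging at least 2 log2 CPM. The libraries form 4 groups and share lines, so these values are descriptive. They were Kdelc1 (r = 0.986) and Eci2 (0.981) among those for Lef1, Syngr2 (0.983), Antxr2 (0.973) and Boc (0.965) for Tcf7, and Map3k5 (0.975), Utf1 (0.974) and Myo10 (0.973) for Tcf7l1. Kdelc1 averaged 49.9 TPM for EpiLC, 65.8 for CEpiLC, 61.9 for SOX2-OFF and 53.3 for SOX2-ON. Utf1, a chromatin-associated gene of undifferentiated embryonic cells, averaged 269, 16.3, 49.5 and 124 TPM in the same order of groups. For Tcf7l2 the highest were Tiprl (0.845), Prkab1 (0.835) and Pdzd11 (0.835).

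The rest of the machinery was described by 3 lists. Of 26 tested nuclear partners (further TLE, PYGO, CTBP, histone-modifying and mediator genes), 17 were called in CEpiLC against EpiLC, 6 higher and 11 lower, with a median log2 fold change of -0.163 against 0.0121 over all genes, of which 42.2% were called. Tle6, a divergent TLE gene known from oocytes, was among the higher ones (1.13, adjusted p 0.0408 by edgeR), on 3 to 6 counts a library for EpiLC. Pygo1, the paralogue of Pygo2, rose in CEpiLC, at 4.36 ± 0.688 TPM over 1.19 ± 0.379 (log2 fold change 1.88 ± 0.27 SE, adjusted p 0.00013 by edgeR). Of 19 destruction complex genes, 9 were called, 6 higher and 3 lower. They included Axin2, a scaffold and feedback target, up from 10.8 ± 1.7 to 136 ± 31.2 TPM (3.67 ± 0.17 SE, adjusted p 4.82e-09 by edgeR), and Apc2, an APC paralogue, down from 4.67 ± 0.389 to 0.773 ± 0.123 TPM (-2.57 ± 0.19 SE, adjusted p 3.9e-07 by edgeR). Of 10 junction partners (cadherin, catenin and other cell junction genes), 1 was higher, the N-cadherin gene Cdh2 (1.57 ± 0.24 SE, adjusted p 0.000187 by edgeR), and 5 were lower.

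Between SOX2-ON and SOX2-OFF, 10 of 26 nuclear partners were called (7 higher, 3 lower), 4 of 19 destruction complex genes (3 higher, 1 lower) and 7 of 10 junction partners (2 higher, 5 lower), beside 28.8% of all genes. Axin2 stood at 93.8 ± 5.42 and 93.6 ± 10.4 TPM in SOX2-ON and SOX2-OFF (log2 fold change -0.05, adjusted p 0.847 by edgeR). The cadherin genes moved in opposite directions, with Cdh3 (P-cadherin) at 61.8 ± 3.52 against 19.7 ± 2.6 TPM (1.60 ± 0.16 SE, adjusted p 9.01e-06 by edgeR) and Cdh2 at 40.0 ± 7.65 against 96.3 ± 28.2 TPM (-1.32 ± 0.24 SE, adjusted p 0.00109 by edgeR). Tnik, a kinase that binds TCF proteins, was lower (-1.11 ± 0.23 SE, adjusted p 0.00309 by edgeR), and Ctnna2, an α-catenin gene, higher (1.304 ± 0.27 SE, adjusted p 0.00259 by edgeR).

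In SOX2-OFF against CEpiLC, 13 of 26 nuclear partners (8 higher, 5 lower), 8 of 19 destruction complex genes (3 higher, 5 lower) and 7 of 10 junction partners (5 higher, 2 lower) were called, and in SOX2-ON against CEpiLC 17 (12 higher, 5 lower), 11 (5 higher, 6 lower) and 7 (4 higher, 3 lower). Of all genes, 48.5% and 56.5% were called in these comparisons, and with the chromosome shift removed the list genes called fell from 28 to 20 of 55 and from 35 to 27. In SOX2-ON against CEpiLC, Cdh3, on chromosome 8, was higher (2.47, adjusted p 9.79e-08 by edgeR) and Cdh2 lower (-1.43, adjusted p 0.000206 by edgeR). Among the nuclear partners, the largest differences were in TLE genes of low level. Tle6 averaged 0.65 TPM for CEpiLC, 3.1 for SOX2-OFF and 4.69 for SOX2-ON, and was higher in both (log2 fold change 2.41 and 2.93, adjusted p 2.35e-05 and 2.53e-06 by edgeR). Tle2 stayed under 1 TPM, at 0.15, 0.41 and 0.753 (1.54 and 2.44, adjusted p 0.0185 and 0.000357 by edgeR), on 3 to 4 counts a library for CEpiLC. Against EpiLC, 38 of the 55 tested genes of the 3 lists were called in SOX2-OFF (18 higher, 20 lower) and 38 for SOX2-ON (19 higher, 19 lower), beside 62.1% and 59.8% of all genes. Axin2 was higher in both (3.14 and 3.09, adjusted p 1.04e-08 and 1.26e-08 by edgeR), and Apc2 lower in both (-2.79 and -2.015, adjusted p 9.71e-08 and 9.27e-07 by edgeR). Tle6 was also higher in both (3.54 and 4.065, adjusted p 1.29e-06 and 3.21e-07 by edgeR). Tle2 had 1 count in each EpiLC library, 6 to 9 for SOX2-OFF and 15 to 20 for SOX2-ON, and was called in both (adjusted p 0.000626 and 3.01e-05 by edgeR). In SOX2-OFF against EpiLC, Tnik (1.62), Cdh2 (1.46) and Tnks (1.03), a tankyrase gene on chromosome 8, were higher and Ctnna2 (-1.44) lower (adjusted p 6.27e-05, 0.000149, 2.78e-08 and 0.000393 by edgeR). In SOX2-ON against EpiLC, Pygo1 (1.63) and Cdh3 (2.17), on chromosome 8, were higher and Vcl (-1.295), the vinculin gene, lower (adjusted p 0.00021, 1.59e-07 and 2.85e-08 by edgeR). The values of the named list genes against wild type keep the chromosome shift. Chromosomes are given only for Tnks and Cdh3, and others of these genes may also lie on chromosomes 6, 8 or 11. Their differences from wild type, those of Axin2 and Ctnna2 included, are not corrected for that shift. Among the nuclear partners, Ctbp2, a co-repressor, was lower in SOX2-OFF than in EpiLC (-1.39 ± 0.11 SE, adjusted p 2.83e-07 by edgeR), at 119 ± 9.71 against 321 ± 16.1 TPM, and Aes, the short TLE paralogue, was higher in SOX2-ON (1.03 ± 0.14 SE, adjusted p 3.79e-05 by edgeR).

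Markers of other cell states also differed among the groups, and the lists did not all split the groups in the same way. The 7 EpiLC and pluripotency markers summed to 2760 to 3190 TPM for EpiLC and 849 to 1190 for CEpiLC. They summed to 968 to 1130 TPM for SOX2-OFF and 1510 to 1770 for SOX2-ON. Of these sums, Pou5f1 alone averaged 887 TPM for EpiLC, 843 for CEpiLC, 851 for SOX2-OFF and 1070 for SOX2-ON. The SOX2-ON sums include Sox2, at a mean of 187 TPM with the transgene counted. In CEpiLC against EpiLC, 6 of the 7 were called lower, beside 20.1% of all genes. The median log2 fold change of the 7 was -3.95. Summed over the 8 caudal epiblast and streak markers, levels ran from 2.38 to 3.74 TPM for EpiLC, 1580 to 1910 for CEpiLC, 992 to 1060 for SOX2-OFF and 242 to 291 for SOX2-ON. The 8 naive pluripotency markers summed to 307 to 416 TPM for SOX2-ON and at most 129 in any other library. The 8 extraembryonic endoderm markers summed to 867 to 959 TPM for SOX2-OFF and 381 to 843 for SOX2-ON, against 233 to 322 in wild type with Ttr at 0 for CEpiLC. Sparc was the highest of them for EpiLC, SOX2-OFF and SOX2-ON, at means of 206, 349 and 239 TPM. For CEpiLC it was Lamb1, at 143 TPM. Means of at least 1 TPM were reached by 3 of the 8 for EpiLC, 4 for CEpiLC, 7 for SOX2-OFF and 6 for SOX2-ON. The 7 mesendoderm and endoderm markers summed to 221 to 332 TPM for SOX2-OFF, 45.9 to 107 for SOX2-ON, 30.6 to 117 for CEpiLC and at most 3.9 for EpiLC, with Cer1 at 0 there. The 5 paraxial mesoderm markers summed to 144 to 709 TPM for CEpiLC and 143 to 269 for SOX2-OFF, and to at most 18.9 in the other groups, with Msgn1 at 0 for EpiLC and Meox1 at 0 for SOX2-ON. The 6 neural markers stayed at or below 10.1 TPM in sum. The 8 markers of the fibroblast feeders, on which the stem cells had been kept and from which they were separated by plating before differentiation, summed to 39.1 to 56.6 TPM for EpiLC, 54.7 to 84.9 for CEpiLC, 19.6 to 39.3 for SOX2-OFF and 22.9 to 43.3 for SOX2-ON, and Thy1 alone averaged 42.1 for CEpiLC. The part of these cells in the levels of the 10 genes was not tested.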

How the data were processed

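Single-end, strand-specific libraries of polyadenylated RNA were sequenced from 12 samples. Per the labels and methods, the authors trimmed reads with cutadapt 1.16, aligned them with STAR 2.5.2a to mm10 and quantified RefSeq genes with RSEM 1.3.0. The deposited table holds an expected count for each gene and library, estimated by RSEM and not always whole. It also holds TPM as RSEM scaled it for the authors, used here for levels and shares. The authors' own test was DESeq2 1.16.1.

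Here the counts, rounded, were tested with edgeR 4.0.16 (R 4.3.3, limma 3.58.1): filterByExpr, TMM scaling, a quasi-likelihood model of all 12 libraries, with p adjusted by Benjamini-Hochberg across 14196 tested genes. A call needed an adjusted p no higher than 0.05. Totals of 10408252 to 27337740 counts limit the precision of low genes. Chromosomes from RefSeq were known for 99.6% of genes, and the chromosome shift was taken as each library's median deviation over genes of a chromosome. Alternatives were RLE or no scaling factors, other filters, DESeq2 1.42.0, limma-voom, 6 libraries alone, the replicate block, the shift removed and leaving out each library.

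The 10 genes and the lists were chosen with earlier results of these data known. Named were all 10, at most 4 called genes of each list per comparison with the largest absolute log2 fold change over 1, the 3 nearest genes of each TCF/LEF gene (1 of them is not reported here), and Sox2, Pou5f1 and T as label checks. Axin2 in SOX2-ON against SOX2-OFF was named after its values were seen. Deviations of same-numbered libraries were correlated at 0.1 or more in all pairs only for CEpiLC against EpiLC (r = 0.12, 0.132 and 0.103). This rests on values and not on the labels. Single pairs elsewhere were higher, as for replicate 2 of SOX2-ON against CEpiLC (r = 0.201). The main model had no term for pairing. The p-values set differences between groups against the spread between libraries within groups. All SOX2 TetON libraries come from the line of a picked clone, so that spread holds no variation between clones. No libraries of a group were duplicates.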

Additional observations from a re-analysis of the deposited data

How the results depend on the processing

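Of 960 alternative values for the log2 fold changes of the 10 genes, 914 kept their direction and their side of the threshold, 29 lost the call, 7 gained it and 10 changed sign. Removal of the chromosome shift turned Tcf7 in SOX2-OFF against CEpiLC (0.15) and in SOX2-ON against EpiLC (0.33), and Pygo2 in SOX2-OFF against CEpiLC (-0.043). With library size alone, Pygo2 in that comparison was -0.033 and Bcl9 in SOX2-OFF against EpiLC -0.013. Leaving out single libraries turned uncalled values only, which ranged from -0.0313 to 0.0515 for Pygo2 (SOX2-OFF against CEpiLC), from -0.00058 to 0.0525 for Bcl9 (SOX2-OFF against EpiLC) and from -0.103 to 0.00923 for Tle4 (SOX2-ON against EpiLC). With the threshold at 0.01, the genes called in SOX2-OFF against CEpiLC went from 6 to 3 and the list genes called in CEpiLC against EpiLC from 32 to 20. The share of Tcf7l2 ranged from 1.37 to 2.10 percentage points between extreme groups as libraries were left out, and lost its call without CEpiLC replicate 3 (1.43 points).

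With the replicate block, 6 of the 10 genes were called in CEpiLC against EpiLC, 7 in SOX2-OFF against CEpiLC, 8 in SOX2-ON against CEpiLC, 7 between the TetON groups, 8 in SOX2-OFF against EpiLC and 6 in SOX2-ON against EpiLC. The block added Tle4 in SOX2-OFF against CEpiLC (adjusted p 0.0435) and Pygo2 in SOX2-ON against EpiLC (adjusted p 0.03), and changed no other call among the 10 genes. In the 5 comparisons with a TetON group the numbers were not taken to pair the libraries, since at least 1 correlation in each was below 0.1. Depth limits mainly Tcf7l2.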
